A study of Mus musculus with 2 samples.

Results

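The 8 genes described here encode the ion channels that set and carry the action potential at the sarcolemma, the surface membrane of the muscle fibre, together with the subunits of its ATP-sensitive potassium channel. They were taken by name, as Scn4a, Clcn1, Kcnj2, Kcnj12, Kcnj11, Abcc8, Abcc9 and Kcna7, and all 8 were found among the 55536 genes of the deposited tables. Total RNA was sequenced from gastrocnemius, a calf muscle, of 2 adult female B6CASTF1/J mice, which are hybrids of the B6 and Cast strains, at 8 to 10 months of age and from 300 ng of RNA. Both animals form 1 untreated group, so levels and differences are described and no p-value is given. The labels give both tissue samples the same donor identifier, and that they are separate animals rests on the animal numbers in the labels. Values are mean ± SD (n = 2), and levels are in TPM, an abundance scaled for transcript length and library depth.

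When a nerve impulse reaches a skeletal muscle fibre, voltage-gated sodium channels open and the membrane depolarizes. Potassium leaves through voltage-gated channels, while chloride channels and inward rectifier potassium channels hold the membrane near its resting voltage and damp repeated firing. ATP-sensitive potassium channels, built from a Kir6 pore and a sulfonylurea receptor, open when ATP runs low and so tie excitability to metabolism. In humans, mutations of SCN4A and CLCN1 cause myotonia, and mutations of SCN4A and KCNJ2 cause periodic paralysis.

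The libraries held 42714567 expected counts in replicate 1 and 43421652 in replicate 2, of which the 8 channel genes took 61195 and 62565. The skeletal muscle fibre markers Acta1, Ckm, Myh4, Tnnt3, Mylpf and Ryr1 were all detected and summed to 83749 ± 7393 TPM, against 3.02 ± 0.219 TPM for 5 cardiac markers and 0.755 ± 0.403 TPM for 5 neuron and endocrine markers. Schwann cell and nerve markers stood apart between the animals, with a summed 55.7 TPM in replicate 1 and 12.5 TPM in replicate 2. Nuclear protein-coding genes held 48.2% of TPM in replicate 1 and 43.3% in replicate 2, so the TPM of a gene with an unchanged share of the coding RNA is lower in replicate 2.

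Of the 8 genes 4 code for pores through which potassium flows, and the stretch that selects potassium over sodium can be read from their transcripts. The lines below show this stretch of coding sequence for Kcnj2, Kcnj11 and Kcna7, 5′ to 3′, from the GENCODE M21 transcripts, with the 15 bases that code for the selectivity filter in capitals.
Kcnj2-201 (chromosome 11, 111072192 to 111072236, plus strand): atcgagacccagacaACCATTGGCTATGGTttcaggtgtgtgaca
Kcnj11-205 (chromosome 7, 46099481 to 46099525, minus strand): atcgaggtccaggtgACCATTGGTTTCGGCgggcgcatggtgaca
Kcna7-201 (chromosome 7, 45409446 to 45409490, plus strand): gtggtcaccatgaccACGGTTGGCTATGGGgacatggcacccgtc
Over the whole coding sequence Kcnj2 and Kcnj12 were equal at 70.7% of 1299 aligned positions, and Kcnj2 and Kcnj11 at 53.5% of 1294. In the deposited gene tables the posterior SD of the count was 0 for each of the 8 genes in both libraries. Their reads were thus not shared with other genes in that quantification. A second deposited quantification gave Abcc9 a fractional count in replicate 2 (13672.7), so the statement is limited to the first.

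All 8 genes reached 1 TPM in both animals, as did 43.9% of nuclear protein-coding genes, and their levels spanned from 1.98 to 280 TPM. Scn4a, the voltage-gated sodium channel of the adult fibre, was highest with 304 TPM in replicate 1 and 256 TPM in replicate 2. Clcn1, the chloride channel that carries most of the resting conductance, followed at 74.3 and 64.6 TPM. Abcc9, a sulfonylurea receptor, stood at 70.6 and 57.2 TPM, and its pore partner Kcnj11 at 62.9 and 58.3 TPM. Scn4a lay above the others in both animals. Abcc9 lay below Clcn1 within each animal and changed places with Kcnj11 between the animals. Across the animals its values overlapped with those of both genes, while both values of Clcn1 were above both of Kcnj11.

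Kcna7, a voltage-gated potassium channel, followed at 41.3 TPM in replicate 1 and 39.1 TPM in replicate 2. The inward rectifier Kcnj12 had 25.7 and 24.6 TPM. Kcnj2, the other inward rectifier, had 12.6 and 21.2 TPM. Abcc8, the sulfonylurea receptor of pancreatic beta cells and neurons, closed the order with 2.05 and 1.90 TPM, on 204 and 199 expected counts. These 4 genes kept their places in both animals without overlap, with Kcnj2 closest to its neighbour Kcnj12 in replicate 2. The median of the 8 genes was 50.4 TPM, against 8.16 TPM over the 9673 nuclear protein-coding genes at 1 TPM or more in both animals.

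**Figure D1:**
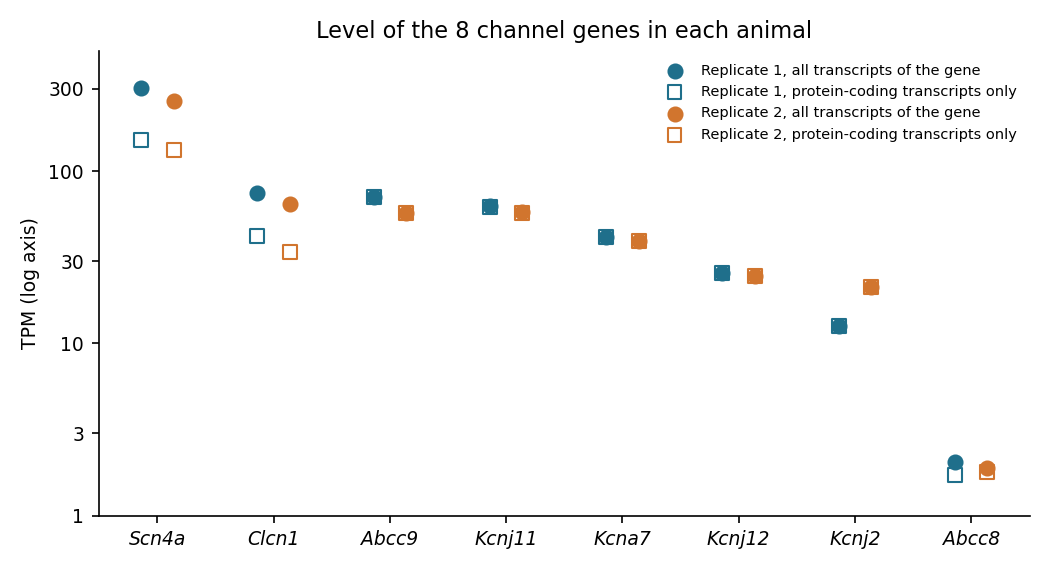
TPM (log axis) of the 8 channel genes in each of the 2 animals, ordered by mean level. Filled circles count every transcript of a gene and open squares only its protein-coding transcripts; Scn4a and Clcn1 drop by a visible step, and Kcnj2 is the gene whose circles lie farthest apart (12.6 and 21.2 TPM).

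Much of the level of the 2 highest genes was assigned to transcripts that the annotation does not class as coding. Whether the reads assigned to them come from RNAs separate from the coding ones was not tested. For Scn4a, the coding transcript Scn4a-201 held 50.1% in replicate 1 and 51.5% in replicate 2, and the processed transcript Scn4a-202 held the remainder. Scn4a-202 is 443 bases long and has 2 exons, at 106353183 to 106353288 and 106349455 to 106349791 on chromosome 11 (mm10, minus strand). It shares no exonic base with Scn4a-201 and ends 65 bases upstream of the first exon of Scn4a-201, which runs from 106349117 to 106349389. The 30 bases across its splice junction, with the end of its first exon in capitals, identify it.
Scn4a-202 junction: GGTGGGAGGTGTGAGgttgaagtcacacag

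Because Scn4a-202 is so short, it took few reads, 1461 of 29260 expected counts in replicate 1 and 1371 of 28979 in replicate 2. Per length it stood level with the coding transcript, at 138 ± 19.4 TPM against 142 ± 14.4 TPM for Scn4a-201. The second quantification gave Scn4a-202 a larger share, 63.1 ± 0.819% of the gene. Counting only the transcript annotated as coding, Scn4a stood at 142 TPM by the first quantification and 112 ± 13.5 TPM by the second. Scn4a was still the highest of the 8 genes on that count. As the 2 transcripts share no exonic base, the split compares reads over separate stretches and does not show which RNA they belong to.

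For Clcn1, the full-length coding transcript Clcn1-201 held 56.8% and 52.6% of TPM in replicates 1 and 2, and the processed transcript Clcn1-202 held 38.5% and 38.3%. Clcn1-202 is almost as long, at 3504 against 3545 bases, but has 15 exons where Clcn1-201 has 23. It begins at 42298900 on chromosome 6, inside the eighth exon of Clcn1-201, lacks the 7 exons before it and exon 21, and its last exon runs 1100 bases farther, to 42315756. Its share in the second quantification was 37.1 ± 0.176%, close to the first. Clcn1-202 shares 2404 exonic bases with Clcn1-201, where position alone does not tell their reads apart. Counting protein-coding transcripts only, Clcn1 stood at 42.2 and 34.0 TPM and lay below Abcc9 and Kcnj11 in both animals. By the mean it was in the fifth place of the 8 genes in both quantifications, but it overlapped with Kcna7 (41.3 and 39.1 TPM), being higher in replicate 1 and lower in replicate 2.

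**Figure D2:**
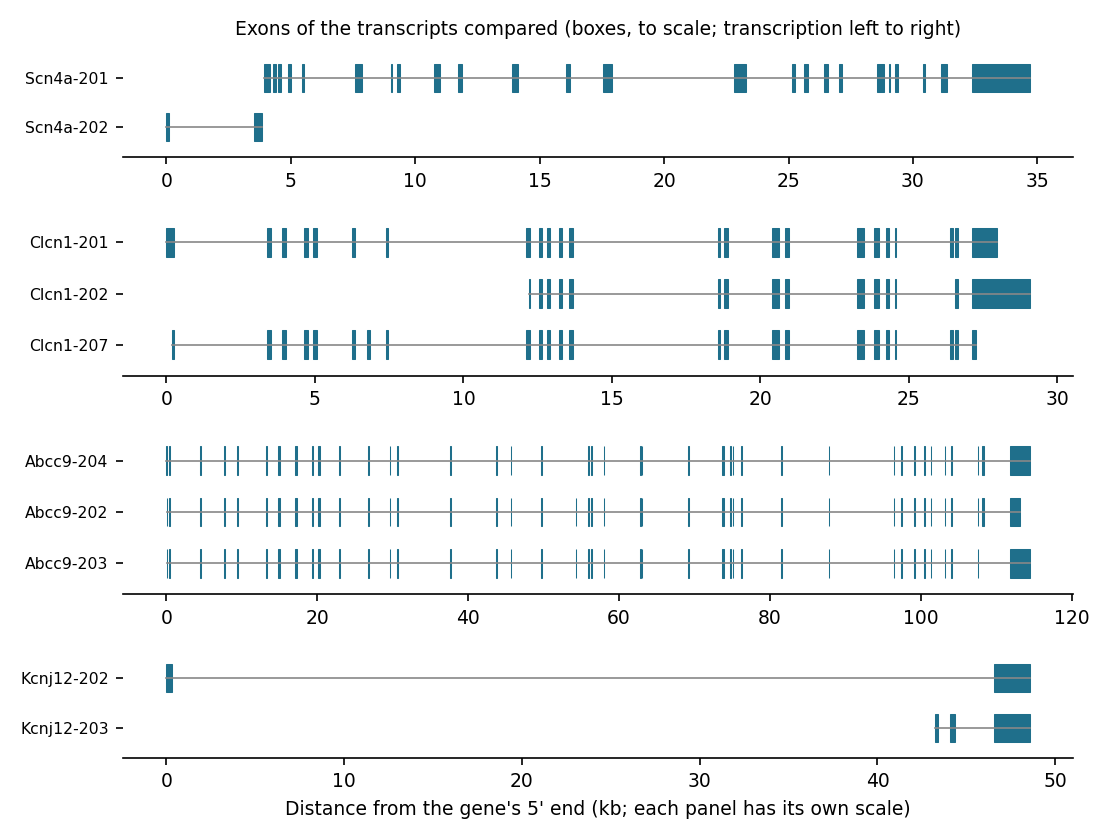
Exons (boxes, to scale) of the transcripts compared for Scn4a, Clcn1, Abcc9 and Kcnj12, by distance in kb from the 5′ end of each gene, with transcription from left to right. Scn4a-202 lies wholly before Scn4a-201, Clcn1-202 lacks the first 7 exons of Clcn1-201, and the first exons of the Kcnj12 transcripts start 43.2 kb apart.

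Clcn1 transcripts with an early stop codon were few, and more of them were counted in replicate 2. Clcn1 exon 7a is a 79-base exon that the muscle splicing factor Mbnl1 keeps out of the adult transcript and whose inclusion is a known feature of myotonic dystrophy. It lies at 42293444 to 42293522 on chromosome 6 (plus strand), between exons 6 and 7 of Clcn1-201. The lines below show the join of exons 6 and 7 without it, and with it in capitals; its length breaks the reading frame, and in Clcn1-207 the last 3 bases shown, tga, are then read as the stop codon.
Clcn1-201, exon 7a skipped: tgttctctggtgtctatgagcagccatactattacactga
Clcn1-207, exon 7a included: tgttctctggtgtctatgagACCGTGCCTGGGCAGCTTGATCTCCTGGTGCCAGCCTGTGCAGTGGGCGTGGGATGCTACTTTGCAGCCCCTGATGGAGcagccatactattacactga

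Transcripts with exon 7a, Clcn1-207 and Clcn1-208, made up 0.238% in replicate 1 and 1.85% in replicate 2 of the TPM of transcripts that span it. They rested on 7.79 and 62.9 expected counts. The second quantification gave 1.08% and 3.57%, on 37.9 and 135 estimated counts. The single transcripts were not stable between the quantifications: Clcn1-207 had 7.79 and 21.6 counts by the first and 37.9 and 18.0 by the second. By both quantifications, nearly all Clcn1 RNA that spans the exon thus lacked it in both animals. Clcn1-207 and Clcn1-208 are annotated as marked for breakdown, so these are shares of the RNA present and not of the RNA made.

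The 6 transcripts annotated as nonsense-mediated decay, in which an early stop codon marks the RNA for breakdown, together held 2.74% of Clcn1 TPM in replicate 1 and 6.19% in replicate 2. By the second quantification they held 3.50% and 6.88%, so replicate 2 was higher in both. The leading one, Clcn1-205, had 110 and 235 expected counts, and its deposited credibility bounds, 0.412 to 2.88 TPM in replicate 1 and 0.986 to 3.88 TPM in replicate 2, overlap. The splicing regulator Mbnl1 stood at 270 and 288 TPM in the respective animals and Mbnl2 at 141 and 128 TPM. Their part in the difference was not tested.

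The ATP-sensitive potassium channel of these muscles was represented by Kcnj11 and Abcc9, which are not neighbours in the genome. Kcnj11, which encodes the Kir6.2 pore, lies 3.76 kb from Abcc8 on chromosome 7, and Abcc9 lies 16.2 kb from Kcnj8, the gene of the Kir6.1 pore, on chromosome 6. Kcnj8 had 1.99 TPM in replicate 1 and 2.52 TPM in replicate 2, on 133 and 188 expected counts. Kcnj11 made up 96.9% and 95.9% of the summed Kir6 TPM, and Abcc9 97.2% and 96.8% of the summed sulfonylurea receptor TPM. From each neighbouring pair, then, 1 member was high and the other low. Kcnj11 exceeded Kcnj8 27.4 ± 6.01 times and Abcc9 exceeded Abcc8 32.3 ± 3.06 times. The SD covers the 2 animals only, and the size of the Abcc9 to Abcc8 ratio depended on the quantification. The pore and receptor that were high stood at a ratio near 1, with Kcnj11 at 0.891 of Abcc9 in replicate 1 and 1.02 in replicate 2.

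The transcripts of Abcc9 end in alternative coding exons. The upstream terminal exon gives SUR2A, known as the receptor form of heart and skeletal muscle, and splicing directly to the downstream one gives SUR2B, known from vascular smooth muscle. In Abcc9-204 the downstream exon follows the upstream one as untranslated sequence. Among transcripts whose stop codon lies in either exon, those with the stop in the upstream exon (142593967 to 142594142 on chromosome 6, minus strand) held 93.9% in replicate 1 and 95.7% in replicate 2, and by the second quantification 96.9% and 98.1%. The SUR2B transcript Abcc9-203 had 4.26 and 2.44 TPM, on 862 and 565 expected counts. Both terminal exons hold 138 bases of coding sequence with the stop codon, as does the last exon of Abcc8. The lines below show them, with the bases that equal Abcc8-201 at the same place in capitals.
Abcc9-204 (SUR2A end): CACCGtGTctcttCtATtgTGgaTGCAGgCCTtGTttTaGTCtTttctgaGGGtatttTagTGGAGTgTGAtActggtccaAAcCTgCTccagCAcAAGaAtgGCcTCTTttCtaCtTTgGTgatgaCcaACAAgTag
Abcc9-203 (SUR2B end): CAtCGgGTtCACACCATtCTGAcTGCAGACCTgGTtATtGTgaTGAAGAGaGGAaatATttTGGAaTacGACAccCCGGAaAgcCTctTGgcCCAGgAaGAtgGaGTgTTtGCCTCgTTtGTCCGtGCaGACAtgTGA
Abcc8-201: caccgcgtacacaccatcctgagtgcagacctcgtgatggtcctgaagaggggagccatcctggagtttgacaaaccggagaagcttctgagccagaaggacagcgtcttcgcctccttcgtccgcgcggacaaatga
The SUR2B end equals Abcc8 at 97 of 138 places (70.3%), the SUR2A end at 71 (51.4%), and the 2 Abcc9 ends equal each other at 70 places.

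A second difference among Abcc9 transcripts is a 39-base exon at 142648027 to 142648065, which keeps the reading frame. It is absent from the leading transcript Abcc9-204 and present in Abcc9-202, and the lines below show both joins, with the exon in capitals.
Abcc9-204, exon skipped: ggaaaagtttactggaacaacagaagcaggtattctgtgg
Abcc9-202, exon included: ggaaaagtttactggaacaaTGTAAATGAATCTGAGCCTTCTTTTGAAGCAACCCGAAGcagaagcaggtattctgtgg
Transcripts that include it held 18.5% in replicate 1 and 20.2% in replicate 2 of those that span it. The second quantification put them higher, at 30.6 ± 0.880%. Both animals were close within each quantification, and the quantifications differed by more than the animals did. A separate exon, at 142658498 to 142658602, was skipped in 0% and 1.22% of transcripts in the respective animals.

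Abcc9 and Kcnj8 are also expressed in pericytes and smooth muscle cells of small vessels. The 9 markers of those cells, Kcnj8 among them, summed to 109 TPM in replicate 1 and 81.6 TPM in replicate 2. They were led by Rgs5 (69.1 and 49.7 TPM) and Acta2 (18.7 and 14.7 TPM), and none was at 0. Of the 9, 7 reached 1 TPM in both animals, as did 43.9% of nuclear protein-coding genes. The pericyte receptor Pdgfrb had 3.69 and 3.23 TPM. Abcc9, at 70.6 and 57.2 TPM, was thus far above Pdgfrb and near Rgs5. Of the 7 markers with enough counts, 2 were higher and 5 lower in replicate 2, from -0.31 for Myh11 to 0.48 for Kcnj8 on the log2 scale, with a median of -0.09, beside -0.13 for Abcc9. With spike-in scaling the median was -0.22 and Abcc9 stood at -0.26. In bulk tissue fewer cells of a type and less RNA per cell cannot be told apart, and the part of vessel cells in the level of Abcc9 was not tested.

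Abcc8 was low in both animals, and its reads were spread over several transcripts. The full-length Abcc8-201 held 44.6% and 43.4% of its TPM in replicates 1 and 2, on 122 and 127 expected counts, and the shorter coding transcript Abcc8-206 held 39.0 ± 1.48%. The retained-intron transcript Abcc8-208 held 12.6% and 4.48%, on 12.7 and 4.78 expected counts, and Abcc8-202 held 0% and 13.6% on 0 and 2.75 counts, too few to compare. Of the neuron and endocrine markers, Syp had 0.730 and 0.300 TPM, while the insulin gene Ins1 had 0 counts in both animals and Ins2 had 1 and 0.

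Kcnj11 transcripts were mainly the single-exon coding transcript Kcnj11-205, at 86.5% in replicate 1 and 95.2% in replicate 2. By expected counts, where short fragments weigh less, it held 97.9% and 99.4%. Kcna7 and Kcnj2 each have 1 annotated transcript.

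**Figure D3:**
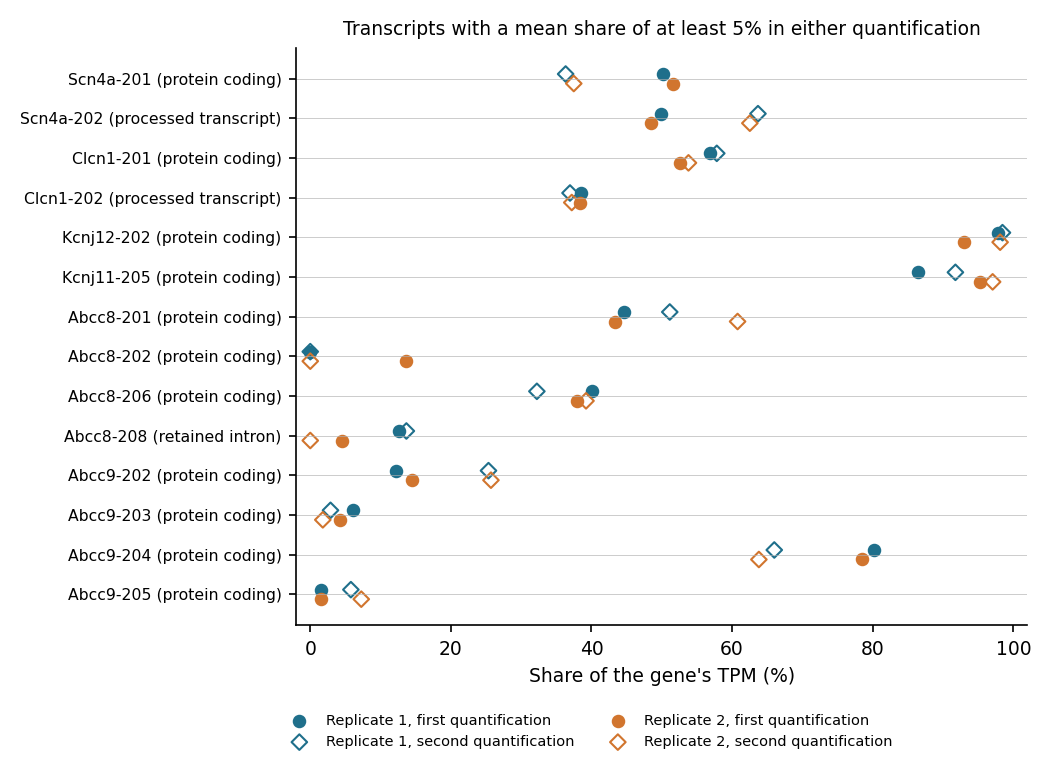
Share of the TPM of its gene (%) held by each transcript with a mean share of at least 5% in either quantification, for the 6 genes with more than 1 transcript; colours mark the animals and symbols the quantification. The animals lie close together for most transcripts, and the quantifications differ most for Scn4a-201 (50.8% against 36.9%) and Abcc9-204 (79.4% against 64.9%).

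Kcnj12 was transcribed almost wholly from its distal first exon. Its transcript Kcnj12-202 joins an exon at 61022564 to 61022850 on chromosome 11 (plus strand) to the exon that holds the coding sequence. It held 97.8% in replicate 1 and 93.0% in replicate 2, and 98.5% and 98.1% by the second quantification. Kcnj12-203, from a first exon 43.2 kb closer to the coding exon, had 37.6 and 132 expected counts, but 28.8 and 38.4 by the second quantification. Kcnj12-201 starts at the same proximal exon and had 0 expected counts in both animals. The joins are shown with the end of the exon before the coding exon in capitals.
Kcnj12-202, distal: CGGCCACTGACCGAGaagtgcccccgcctg
Kcnj12-203, proximal: CTAAACAAGCCCATGaagtgcccccgcctg

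Of the inward rectifiers of the Kir2 family, which hold the resting membrane near the potassium equilibrium voltage, Kcnj12 and Kcnj2 were detected and Kcnj4 and Kcnj14 were not. Kcnj2 made up 32.7% of Kir2 TPM in replicate 1 and 46.3% in replicate 2, because its own level differed and that of Kcnj12 hardly did. Kcnj12 exceeded Kcnj2 2.05 times in replicate 1 and 1.16 times in replicate 2. By expected counts, which are not scaled for length, Kcnj2 held 60.9 ± 9.46% of the family, since its transcript has 5444 bases and the leading one of Kcnj12 has 2291. None of 9 other Kir genes reached 1 TPM in both animals, and they summed to 0.225 ± 0.0778 TPM.

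**Figure D4:**
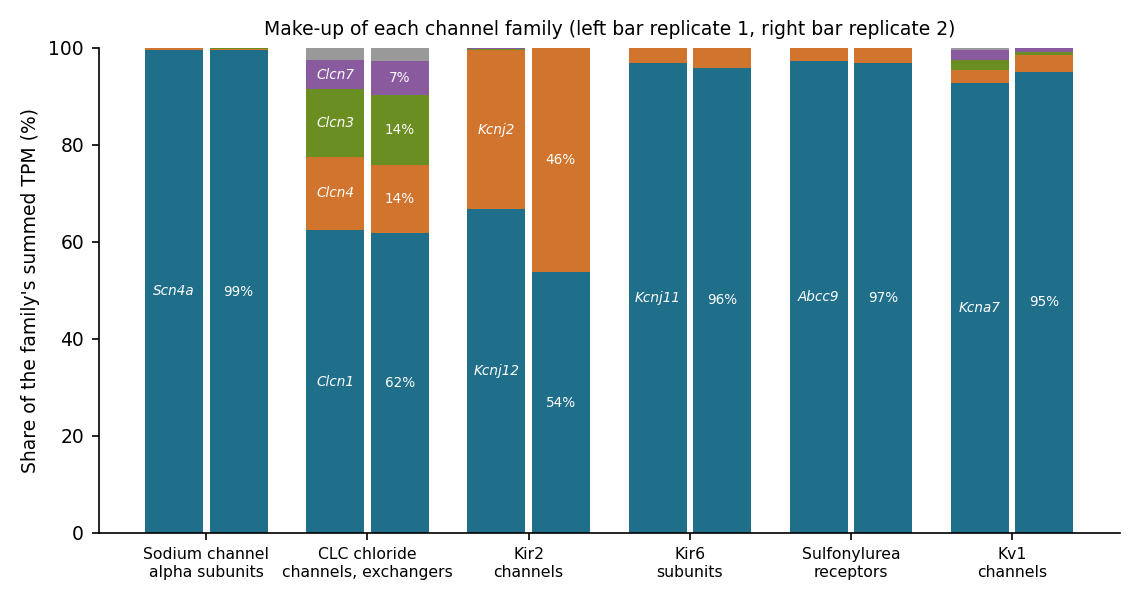
Share of the summed TPM (%) of each channel family held by its genes in replicate 1 (left bars, with gene names) and replicate 2 (right bars, with percentages). A single gene fills more than 90% of the sodium channel alpha, Kir6, sulfonylurea receptor and Kv1 families in both animals, while Kir2 is split between Kcnj12 and Kcnj2.

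Among sodium channel alpha subunits Scn4a held 99.5 ± 0.0253% of TPM, and none of the other 9 reached 1 TPM in both animals. Scn7a had 1.12 and 0.610 TPM. Of the beta subunits, which modulate the gating of the alpha subunit, Scn4b had 122 and 97.6 TPM, while Scn2b and Scn3b stayed below 1 TPM.

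Among CLC genes Clcn1 held 62.1 ± 0.411% of TPM. Clcn4 (16.4 ± 2.47 TPM), Clcn3 (15.9 ± 1.00 TPM) and Clcn7 (7.22 ± 0.198 TPM), which encode exchangers of intracellular membranes, followed, with Clcn6 at 1.90 ± 0.304 TPM. The other 4 genes did not reach 1 TPM in both animals. With protein-coding transcripts only, Clcn1 held 49.8 ± 1.17% of the family.

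Among Kv1 channels Kcna7 held 93.8 ± 1.70% of TPM, and Kcna5 was the only other gene at 1 TPM in both, with 1.20 and 1.40 TPM. Kcna1 and Kcna2, channels of myelinated axons, were both more than 2-fold lower in replicate 2, with 106 and 29 counts and 182 and 77 counts. Their log2 ratios were -1.82 and -1.24, beside -2.19 for the myelin gene Mbp. All 5 Schwann cell and nerve markers with enough counts were more than 2-fold lower in replicate 2. Among the 11127 genes tested, 1.38% were at least 2-fold apart in either direction. The part of nerve in the values of Kcna1 and Kcna2 was not tested. Kcna7 had a log2 ratio of 0.10.

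Of 25 other potassium and chloride channel genes reported in muscle, 12 reached 1 TPM in both animals, as did 43.9% of nuclear protein-coding genes. The 25 genes summed to 214 ± 14.4 TPM. The highest were Ano5 (52.1 ± 0.361 TPM), a scramblase whose loss causes limb-girdle muscular dystrophy in humans, and the voltage-gated potassium channels Kcnc4 (29.7 ± 6.03 TPM) and Kcnc1 (25.3 ± 4.54 TPM). Kcnab1, a beta subunit of Kv1 channels, had 23.9 ± 0.120 TPM, the calcium-activated channel Kcnma1 23.3 ± 0.884 TPM, and Ano6 15.7 ± 1.77 TPM. All 12 channel scaffold and regulator genes reached 1 TPM in both animals, beside the same 43.9%. Among them were the splicing regulator Mbnl1 (279 ± 12.7 TPM), Stac3 (175 ± 6.48 TPM), Mbnl2 (134 ± 9.31 TPM), the ankyrin Ank2 (55.0 ± 2.86 TPM) and dystrophin, Dmd (47.7 ± 2.49 TPM).

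Lists of genes of other membrane systems of the fibre had higher summed levels. The 8 channel genes summed to 558 ± 49.7 TPM, against 996 ± 108 TPM for 10 sodium pump genes and 4620 ± 575 TPM for 12 genes of the triad, where the calcium release channel meets the T-tubule. Among the sodium pump genes were Fxyd1 (262 ± 18.0 TPM) and Atp1b2 (170 ± 23.8 TPM), and the triad was led by Casq1 (1504 ± 262 TPM) and Ryr1 (1003 ± 131 TPM). These differences were not tested, since the lists differ in size and were chosen by name.

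Between the animals, none of the 8 genes differed at least 2-fold, while 1.38% of the 11127 genes tested did (those whose expected counts averaged 50 or more). After TMM scaling the median log2 ratio of replicate 2 over replicate 1 was 0.04 for the 8 genes and 0.00 for all tested genes, with 4 of the 8 higher and 4 lower in replicate 2, or 2 higher and 6 lower when scaled by the spike-ins. Kcnj2 stood closest to the 2-fold line, with 1882 and 3647 expected counts and a log2 ratio of 0.94 (1.92-fold higher in replicate 2). Of all tested genes 1.64% lay at least as far from 0. The other 7 lay between -0.13 for Abcc9 and 0.19 for Kcnj11. The half-width of the counting interval was 0.08 for Kcnj2, so counting error is small beside its difference, but each animal has 1 library and the spread between animals of this gene rests on 2 values.

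Scaling by the ERCC spike-ins, a set of synthetic RNAs of known amount, brought the median log2 ratio of all genes to -0.12. The ratios of Kcnj12 and Kcna7, 0.13 and 0.10 with TMM, turned to -0.00 and -0.03, so no direction is given for them. Kcnj2 went from 0.94 to 0.81, still above 0. Kcnj11 went from 0.19 to 0.06, about the size of its counting half-width (0.06), so no direction is given for it either. Neither Scn4a (-0.03) nor Clcn1 (-0.04) differed from the median of all genes by more than 0.05 with TMM.

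**Figure D5:**
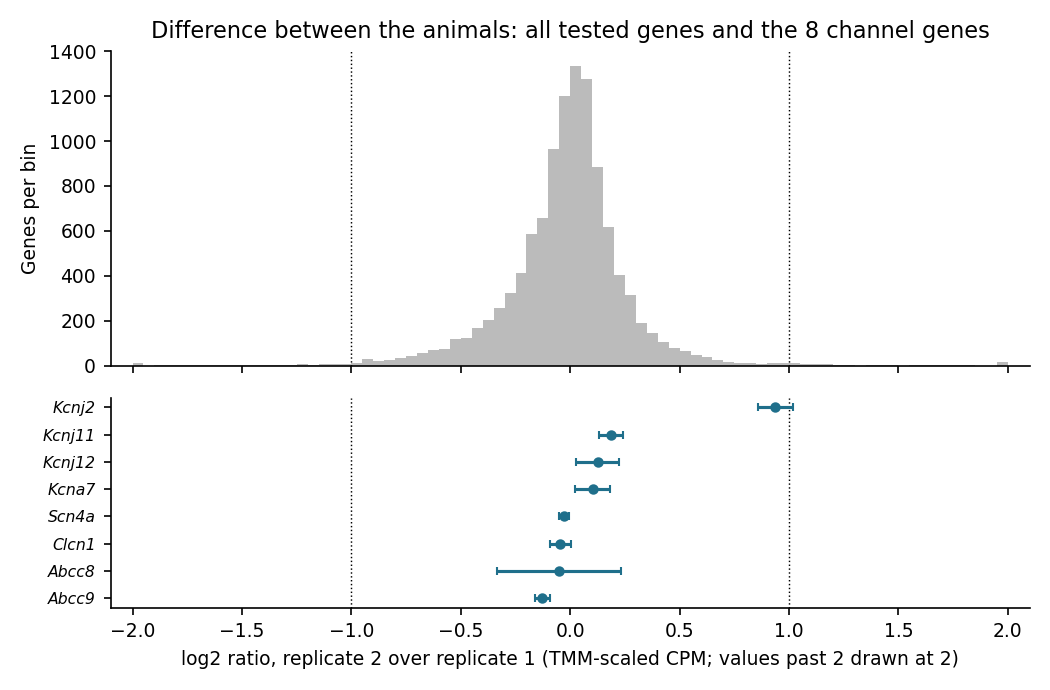
Distribution of the log2 ratio of replicate 2 over replicate 1 (TMM-scaled CPM) over 11127 tested genes (top) and the same ratio of the 8 channel genes (bottom), with 95% intervals that cover counting error only and dotted lines at 2-fold. Kcnj2, at 0.94, lies beside the upper line and the other 7 lie between -0.13 and 0.19.

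Promoter sequences from RefSeq (GRCm38.p6, 250 bases before to 50 after the start) were given for 6 of the 8 genes, Kcnj11 and Abcc8 not among them. They are shown because a binding element of MEF2, a family of transcription factors of muscle, was found in 2 of the 6, Clcn1 and Abcc9, and in 3.19% of 32851 promoters of the same length, on either strand. The 30 bases around each match are given with the element in capitals.
Clcn1 (chromosome 6, 42286624 to 42286653, plus strand): ggagagacagCTATAAATAGctagaggtgg
Abcc9 (chromosome 6, 142702263 to 142702292, minus strand): tcccaccaccCTAAAAATAAtccactcgcc
The E-box CANNTG, the letters that myogenic factors bind, was found in 5 of the 6 promoters and in 72.3% of all, so its presence sets these genes apart little. The window of Kcnj12 covers the proximal start, from which few of its transcripts began here. That of Scn4a, which held no E-box, covers the start of Scn4a-201 but not that of Scn4a-202. A match is a description of letters and does not show binding.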

How the data were processed

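Total RNA, with ribosomal RNA reduced and ERCC spike-ins added, was sequenced with a directional kit from 2 animals, per the labels. Per library, the authors deposited gene and transcript tables from transcriptome alignments, and a second quantification of transcripts, on mm10 with GENCODE M21 per the deposited descriptions. Which program made each is not given in the sources used here. Expected counts, as deposited, estimate reads and are not normalized. The deposited TPM values are scaled for effective length to a fixed total per library, so abundant short RNAs lower all others. The deposited percent values give the share of each transcript in the TPM of its gene, in which short transcripts weigh as much as long ones.

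Symbols were matched through the identifiers of the second transcript table, whose values were added up per gene. Rounded expected counts were scaled by TMM in edgeR 4.0.16 (R 4.3.3), with a prior count of 2, over genes with a mean count of at least 50. Exon positions and transcript sequences came from GENCODE M21 (GRCm38, also called mm10), and coding sequences were aligned with Biopython 1.88. Tables were handled in Python 3.11.15 with pandas 2.3.3. The ratio step was tested on simulated data, with 200 of 11127 genes changed 4-fold and a coefficient of variation of 0.1. Of the changed genes 100% were called 2-fold with the correct sign, and 2 unchanged genes were called too. Changes near 2-fold, such as that of Kcnj2, were not simulated. Alternatives were size factors from DESeq2 1.42.0, scaling by spike-ins, other thresholds, the posterior mean and the second quantification. A gene with 0 counts could have had up to 3; intervals cover counting error only.

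Named are the 8 genes, up to 6 genes of each other list at 1 TPM in both animals, up to 3 markers per cell type and transcripts with a share of at least 5%. Other genes and transcripts named, such as Scn7a, Kcna1, Kcna2, Kcnj8, Pdgfrb, Clcn1-205, Clcn1-207 and Clcn1-208, were chosen after their values were seen. The 8 genes and the lists were chosen with earlier results of these data known. Likeness of pattern to other genes was not measured, since 2 libraries give no pattern. The allele of origin of reads was not analysed here. No protein sequences were used. Some genes of the lists and 1 sequence are not reported here.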

Additional observations from a re-analysis of the deposited data

How the results depend on the processing

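All 8 genes stayed at 1 TPM or more in both animals under each quantification, at 0.5 TPM and with either animal left out; at 2 TPM 7 did, without Abcc8. None of the 8 was 2-fold apart under any scaling, prior count, count filter or quantification tried. Of all genes, 154 of 11127 (1.38%) were 2-fold apart as reported. With a mean count of at least 10 it was 579 of 14154 (4.09%), and with no filter 2577 of 55536 (4.64%). Spike-in scaling gave 1.64% and the second quantification 0.954%. For 8 genes, none is close to each of these shares. The summed TPM of 558 became 1219.8 when rescaled over nuclear protein-coding genes, by construction, and 388 with coding transcripts only, an alternative chosen after seeing the data. Family shares moved by more than the SD as follows. The second quantification gave 99.6% for Scn4a and 97.3% for Abcc9. Expected counts gave 99.1% for Scn4a, 56.2% for Clcn1, 60.9% for Kcnj2, 98.5% for Abcc9 and 88.5% for Kcna7, since counts are not scaled for length. Posterior mean TPM gave 98.8% for Scn4a, 60.7% for Clcn1 and 96.0% for Abcc9. Coding transcripts gave 99.1% for Scn4a, 49.8% for Clcn1 and 97.3% for Abcc9. Of these families, the gene holding most changed only for Kir2, and only by expected counts. The posterior mean of Abcc8 was 2.62 TPM, 32.7% above the reported value. The ratio of Abcc9 to Abcc8 was 23.8 with posterior mean TPM, 36.3 by the second quantification and 67.6 by expected counts, against 32.3 as reported. With 1 library per animal, ratios cannot be computed without either one, and depth limits Abcc8 and the rare Clcn1 transcripts. No paired analysis was possible because both libraries belong to the same group.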

Other observations

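Of 8 genes that rise in denervated fibres, a state in which the channel make-up of the sarcolemma is known to shift, 4 reached 1 TPM in both animals, as did 43.9% of nuclear protein-coding genes. Their median was 1.52 TPM, against 0.525 TPM over nuclear protein-coding genes. The fetal receptor subunit gene Chrng had 1 count in replicate 1 and 2 in replicate 2, and Kcnn3, a calcium-activated potassium channel, had 0.890 and 0.540 TPM. Chrna1 had 2.44 and 2.18 TPM. The highest of the 8 were Gadd45a (15.2 and 16.6 TPM) and Myog (10.1 and 6.37 TPM). As a list they summed to 31.8 ± 2.57 TPM. None of the 6 that had enough counts was 2-fold apart between the animals, beside 1.38% of the 11127 genes tested.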
